A study of Mus musculus with 4 samples.

Results

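Among the villus fibroblasts of a Lats1/2-deleted mouse intestine, 350 cells carried both high YAP targets and high immediate early genes. They made up 8.52% of the 4108 stromal cells of the library. Cells were chosen from their own measured values. A cell had to hold at least 1 UMI (1 captured mRNA molecule) of Adamdec1, a villus fibroblast metalloprotease gene, and few detected genes of 4 other stromal types. At most 2 of 6 genes of submucosal FB4 fibroblasts, 1 of 3 of subepithelial FB5 fibroblasts, 1 of 4 of mural or muscle cells and 1 of 3 of vFB3 fibroblasts could be above 0. These gates left 2582 cells. Of these, the cells described here had at least 3 UMIs per 10000 of Vegfc and Amotl2 together and at least 15 per 10000 of Fos, Fosb and Egr1 together. The Vegfc and Amotl2 sum stands for YAP targets and the Fos, Fosb and Egr1 sum for immediate early genes. The other gated cells form 3 neighbouring populations. The immediate-early-low neighbour has the same YAP-target sum of 3 or more and less than 15 of the other (538 cells). The YAP-target-low neighbour has the immediate early sum of 15 or more and less than 3 of the first (706 cells). The remaining 988 cells are low in both.

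YAP and TAZ are transcriptional coactivators that enter the nucleus when the Hippo kinases LATS1 and LATS2 are inactive and act there through TEAD factors bound to DNA. Cyr61, Ctgf, Ajuba and Amotl2 are among their known target genes. Immediate early genes such as Fos, Egr1 and Junb encode transcription factors that are transcribed within minutes of a growth factor, mechanical or stress stimulus and without new protein synthesis. The product of Fos pairs with Jun proteins to form AP-1, which YAP, TAZ and TEAD are known to meet at many enhancers. Villus fibroblasts lie beneath the epithelium around capillaries and the lacteal, the lymphatic vessel that takes up dietary fat. VEGF-C, encoded by Vegfc, is the main growth factor of lymphatic vessels.

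The study asked which PDGFRβ+ intestinal stromal cells (IntSCs) supply VEGF-C after YAP/TAZ hyperactivation. The library came from adult C57BL/6J mice with floxed Lats1 and Lats2, a tamoxifen-inducible Cre driven by Pdgfrb (Pdgfrb-Cre-ERT2) and a tdTomato reporter, 1 week after tamoxifen (LATS1/2 KO). Epithelium, immune and endothelial cells were depleted before sorting, and tdTomato+ cells were captured with a droplet kit that reads the 3′ ends of mRNA. The series has 4 samples in 3 groups, of which the WT libraries and the 2-week library were not analysed here. All 4 populations therefore come from mice that carry the same deletion, and no value below compares deleted with undeleted mice. The Cre line marks PDGFRβ+ cells of several kinds, so the deletion is shared by mural and muscle cells of the same animals. Reads at 3′ ends do not show which exons a transcript holds. The level of Lats1, 12.2 UMIs per 1000000 in the chosen cells, and that of Lats2, 80.2, therefore do not check the deletion.

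The file has 1 library, so cells are not replicates and no p-value is given. Each level is the sum of a gene's UMIs over a population, per 1000000 UMIs of that population (CPM). Intervals are 95% intervals for counting error only, an exact Poisson interval for a level and an exact conditional binomial interval for a ratio of 2 levels. Spread between animals is in none of them.

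The 2 sums that chose the cells describe them and are no finding. Vegfc and Amotl2 together had a median of 5.31 UMIs per 10000 in the chosen cells, from 3 to 17.2. Fos, Fosb and Egr1 together had a median of 40.9, from 15 to 201.4. The plot of the gated cells on both sums shows a continuous spread across both thresholds and no gap. Cyr61 was near the same level on both sides of the YAP-target threshold, and Gadd45g was higher inside it. Each threshold was looked at among cells past the other. In the 46 cells that lay just inside the YAP-target threshold (3 to 3.48 per 10000), Cyr61 was at 852 CPM and Gadd45g at 1237 CPM. In the 52 cells just outside it (2.51 to 2.999), Cyr61 was at 858 and Gadd45g at 914 CPM. In the 41 cells just inside the immediate early threshold, Cyr61 was at 648 and Gadd45g at 744 CPM, against 555 and 604 CPM in the 49 cells just outside.

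**Figure D1:**
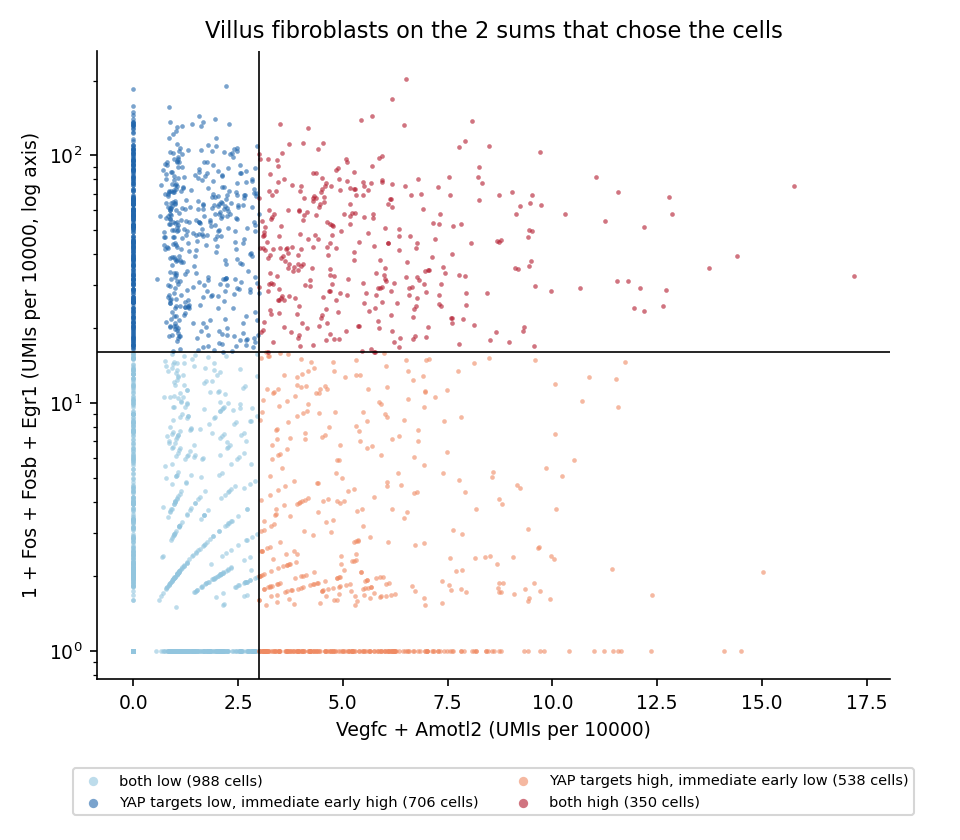
Each point is 1 of the 2582 gated cells, placed by its Vegfc + Amotl2 sum (x axis, UMIs per 10000) and by 1 plus its Fos + Fosb + Egr1 sum (y axis, UMIs per 10000, log axis). Lines mark the thresholds of 3 and 15. The 350 chosen cells (dark red) fill the upper right corner without a gap to the other 538, 706 and 988 cells.

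The share of immediate-early-high cells on each side of the YAP-target threshold describes the rule. Of the 888 YAP-target-high cells, 39.4% were immediate-early-high (exact binomial 95% interval 36.2 to 42.7), and of the 1694 YAP-target-low cells 41.7% were (39.3 to 44.1). Among cells with an Xist UMI the shares were 34.1% and 37.2%, and among cells without one 46.5% and 45.3%. The order of the 2 shares differed between the Xist subsets, and the intervals cover counting of cells in 1 library only.

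The chosen cells were of good depth. They had a median of 11641.5 UMIs per cell (2239 to 28617) and 3581 genes, close to the immediate-early-low neighbour (11853.5 UMIs) and above the YAP-target-low neighbour (9944) and the cells low in both (9573.5). The median mitochondrial share was 4.64%, against 4.95%, 4.79% and 5.26% in the same order. An Xist UMI was present in 49.1% of them (43.8 to 54.5), against 61.9% (57.6 to 66.0) in the immediate-early-low neighbour and 40.2% (36.6 to 43.9) in the YAP-target-low neighbour. Of the 178 chosen cells without an Xist UMI, 147 had a UMI of a Y-linked gene, and of the 172 with an Xist UMI 11 had. The library thus holds cells of both sexes, and the Xist subsets are mostly cells of different animals. Since the share of Xist-positive cells moved with the populations, ratios were also taken within Xist-positive and within Xist-negative cells. The main ones are given beside the pooled values.

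The label of villus fibroblasts was checked on genes the gates did not use. Pdgfra, a fibroblast receptor gene that is also on the FB5 list, was at 365 CPM, Pdgfrb at 607 CPM and the matrix proteoglycan gene Dcn at 7992 CPM. The 11 villus identity genes summed to 2570 CPM, against 1895 CPM in the immediate-early-low neighbour and 3588 and 3023 CPM in the YAP-target-low populations. In cells that failed the FB4, the mural and muscle, the FB5 and the vFB3 gate they summed to 2341, 2163, 863 and 488 CPM. This list thus set the chosen cells little apart from cells that failed the FB4 or the mural and muscle gate. Of the defining endothelial markers Pecam1, Cldn5 and Emcn had no UMI, and all 8 endothelial markers summed to 2.93 CPM (range over the 4 populations 1.83 to 2.93). For the epithelium 7 of 8 markers had no UMI, Epcam and Cdh1 among them, and Lgals4 gave the 8.31 CPM of the list. Glial markers summed to 3.18 CPM, with Sox10 and Gfap at 0, and those of interstitial cells of Cajal to 17.8 CPM, with Kit and Ano1 at 0. The immune list summed to 45.7 CPM, with Cd3e at 0 (33.4 to 55.7 over the populations). Mural markers summed to 70.4 CPM, against 702 CPM in cells that failed the mural and muscle gate, and smooth muscle markers to 1301 CPM, against 11320 CPM there. FB4 markers outside the gates summed to 179 CPM, against 1260 CPM in cells that failed the FB4 gate. They were at 112 CPM in the immediate-early-low neighbour, 129 CPM in the YAP-target-low one and 82.7 CPM in the cells low in both. Of the 3 measured against the immediate-early-low neighbour, 1 was at 2-fold or more and 1 at 0.5 or less (median log2 0.89). Markers of FB5 reached 2299 CPM, against 7699 CPM in cells that failed the FB5 gate, and Ogn alone gave 969 of the 2299. They were at 2218 CPM in the immediate-early-low neighbour, 1518 CPM in the YAP-target-low one and 1543 CPM in the cells low in both. Rgs5, a mural gene that a gate counts, was at 706 CPM in the chosen cells and at 425 to 812 CPM in the other 3 populations, so its gate separated little. The markers of vFB3 outside the gates summed to 2427 CPM, against 3385 CPM in the immediate-early-low neighbour, 2848 CPM in the YAP-target-low one and 4556 CPM in the cells low in both. They summed to 7468 CPM in cells that failed the vFB3 gate. The median log2 of the 8 measured genes was −0.64 against the immediate-early-low neighbour, with 3 at 0.5 or less, beside 0.607% of all genes. Against the YAP-target-low neighbour it was 0.64, with 2 at 2-fold or more, beside 1.69% of all genes. With cells that held any vFB3 gate gene left out, the genes at 2-fold or more over the immediate-early-low neighbour were 228 in place of 235.

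The 5 genes given as markers were all highest in the chosen cells and followed the 2 sums to different degrees. They were named with the cells from these data, so their levels are a description. Cyr61, a matricellular CCN protein gene and YAP target, was at 1036 CPM (1005 to 1068), against 221 in the immediate-early-low neighbour, 492 in the YAP-target-low neighbour and 147 in the cells low in both. The ratio was 4.68 (4.41 to 4.97) to the first neighbour and 2.11 (2.01 to 2.20) to the second. Gadd45g, a stress and growth arrest gene, was at 1238 CPM (1204 to 1273), against 218, 591 and 96.5 CPM in the same order. Its ratios were 5.68 (5.35 to 6.02) and 2.10 (2.01 to 2.18). In 13 other settings Cyr61 stayed above 1 against both neighbours, and was past 2-fold against the YAP-target-low one in 8. Gadd45g was past 2-fold against that neighbour in 9 of 13 settings and below 1 in 1, at 0.887 with the stricter gates that leave 11 chosen cells.

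Dkk2, which encodes a secreted Wnt antagonist, was at 663 CPM, against 333 CPM in the immediate-early-low and 416 CPM in the YAP-target-low neighbour. Its ratios were 1.99 (1.88 to 2.11) and 1.59 (1.51 to 1.68). Gas6, the ligand of the TAM receptors Tyro3, Axl and Mertk, was at 477 CPM, against 340 and 183 CPM. Here the YAP-target side was the larger, with ratios of 1.40 (1.32 to 1.49) and 2.60 (2.42 to 2.79). Fmod, the gene of the collagen-binding proteoglycan fibromodulin, was at 76.0 CPM, against 57.1 and 14.1 CPM. Its ratio was 1.33 (1.14 to 1.55) to the immediate-early-low and 5.40 (4.30 to 6.83) to the YAP-target-low neighbour. The 5 markers therefore run from Gadd45g and Cyr61 on the immediate early side to Gas6 and Fmod on the YAP-target side, with Dkk2 between them.

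Single cells of the population varied widely in these genes. Cyr61 had a median of 9.44 UMIs per 10000 (lower and upper quartile 5.63 and 14.1, highest 36.0), and Gadd45g a median of 10.3 (5.38 and 16.9, highest 57.4). In the cells low in both sums the median of both genes was 0. Dkk2 had a median of 5.71 (1.62 and 10.6), and Gas6 a median of 3.90 (2.35 and 6.79). Fmod had a median of 0 and an upper quartile of 0.91, so that its pooled level came from a minority of the cells. The upper quartile of Cyr61 in the immediate-early-low neighbour, 3.42, lay below the lower quartile of the chosen cells.

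**Figure D2:**
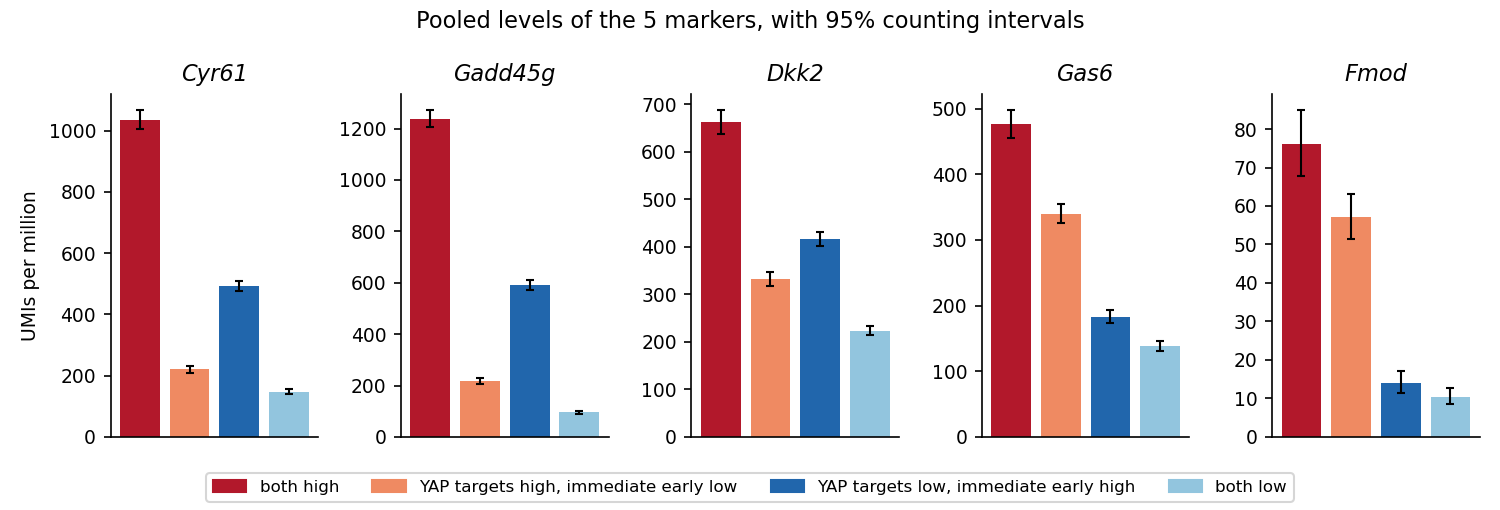
Bars give the pooled level (y axis, CPM, from 0, a separate scale for each gene) of the 5 markers in the chosen cells (dark red), the immediate-early-low neighbour (orange), the YAP-target-low neighbour (dark blue) and the cells low in both (light blue). Error bars are 95% counting intervals. All 5 are highest in the chosen cells, and the second highest bar is the YAP-target-low neighbour for Cyr61, Gadd45g and Dkk2 and the immediate-early-low neighbour for Gas6 and Fmod.

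Within Xist-positive cells the ratio of Cyr61 was 4.56 to the immediate-early-low and 1.84 to the YAP-target-low neighbour, and within Xist-negative cells it was 4.94 and 2.37. For Gadd45g the values were 5.73 and 1.85 in Xist-positive and 5.66 and 2.33 in Xist-negative cells. For Dkk2 the ratio to the immediate-early-low neighbour was 1.70 in Xist-positive and 2.48 in Xist-negative cells. The direction of all 5 markers was the same in both subsets. In the annotation of the build the submitters name (mm10, GENCODE M21), Cyr61 is listed as Ccn1 at chr3:145646976-145649981 on the minus strand and Gadd45g at chr13:51846678-51848468 on the plus strand. Fmod lies at chr1:134037254-134048277 (plus), Dkk2 at chr3:132085292-132180304 (plus) and Gas6 at chr8:13465374-13494490 (minus). All are protein-coding.

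Promoter windows of the leading genes were searched for the letters that TEAD factors and AP-1 are known to bind. The windows run from 250 bases before to 50 bases after a transcript start (RefSeq, GRCm38.p6). GGAATG, the TEAD motif, was searched on both strands, and its reverse complement is CATTCC. Of 32851 windows of 27025 genes, 14.66% hold it. Of the 5 markers only Cyr61 does. Of the 10 genes with the largest ratios over the YAP-target-low neighbour, given below, 7 matched a window by symbol, and 4 of the 7, Bdnf, Dpp4, Ajuba and Ogn, hold the motif in at least 1 of their windows (5 of 13 windows, 38.46%). Bdnf alone has several of these windows, 7 of the 13. Of the 10 genes with the largest ratios over the immediate-early-low neighbour, 7 matched, and none of their 8 windows holds it. AP-1 letters, TGACTCA or its reverse complement TGAGTCA, are in 5.202% of all windows and in the window of 1 of these 7, Il6. Of the 8 windows of genes lowest relative to the same neighbour, 1 also holds them, that of Mmp10. The letters TGACGTCA (CRE) are in 1.79% of all windows and in that of Btg2, and the CArG box bound by SRF is in 1.629% of all windows and in none of these 8. None of these letter strings contains another. A match describes the letters of a window and is not a site of binding.

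These stretches of 60 bases show where the letters stand in genes that lead the results, with the matched letters in capitals, 5′ to 3′ on the strand of the gene. Amotl2, a gene of the rule, is shown beside them. The start used for Amotl2 is that of a transcript within the annotated gene (chr9:102716672-102733418, plus), so its stretch lies inside the gene.
Cyr61, chr3:145650056-145650115 (minus), TEAD letters 103 bases before the start: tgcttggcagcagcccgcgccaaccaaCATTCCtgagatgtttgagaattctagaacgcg
Amotl2, chr9:102717712-102717771 (plus), TEAD letters 65 bases before the start: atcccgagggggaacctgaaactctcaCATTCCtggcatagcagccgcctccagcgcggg
Ajuba, chr14:54577804-54577863 (minus), 2 matches, the first 186 bases before the start: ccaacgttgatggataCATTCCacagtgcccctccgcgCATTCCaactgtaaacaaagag
Ogn, chr13:49607902-49607961 (plus), TEAD letters 86 bases before the start: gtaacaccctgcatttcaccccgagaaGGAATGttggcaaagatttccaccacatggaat
Dpp4, chr2:62412317-62412376 (minus), TEAD letters 118 bases before the start: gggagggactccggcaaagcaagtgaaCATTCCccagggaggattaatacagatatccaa
Il6, chr5:30012864-30012923 (plus), AP-1 letters 249 bases before the start: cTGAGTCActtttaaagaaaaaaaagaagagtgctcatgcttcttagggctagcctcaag

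Against the immediate-early-low neighbour, which passes the same YAP-target threshold (median sum 5.01 against 5.31 UMIs per 10000), the largest ratios belonged to single genes of several lists, described below. Of 10054 genes with at least 50 UMIs in the pair, 235 (2.34%) were at a ratio of 2 or more and 61 (0.607%) at 0.5 or less. The genes of the rule were left out of all counts and rankings. Since the cells were divided by Fos, Fosb and Egr1 in the same cells, these counts describe the division and support nothing. Among genes with at least 100 UMIs and the same direction in Xist-positive and Xist-negative cells, the long noncoding RNA gene Gm26802 led, at 69.4 CPM against 2.00 CPM, a ratio of 34.7 (19.96 to 65.96). It was at 70.1 CPM in the YAP-target-low neighbour (ratio 0.99, 0.85 to 1.15). Gm26802 (chr7:19298260-19300770, minus) lies on the strand of Fosb, a gene of the rule, and just beyond its 3′ end (Fosb, chr7:19302696-19310051, minus). Whether its UMIs came from transcripts of Fosb was not tested, so its value may not be separate from the rule.

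Other genes of this ranking were Atf3, a stress-induced transcription factor gene (ratio 24.8, 17.1 to 37.1), and Nfkbiz, a gene of an NF-κB cofactor (12.0, 8.05 to 18.4). Ccl2, the monocyte chemokine gene, was at 178 CPM against 16.5 CPM (ratio 10.8, 8.81 to 13.4). Cdkn1a, the gene of the cell cycle inhibitor p21, was at 59.2 against 5.70 CPM. Il6, a cytokine gene, was at 33.5 against 3.39 CPM. The list ends with Btg2, an antiproliferative gene (ratio 9.08), Ier3 (8.87) and Arid5a, whose product stabilizes Il6 mRNA (8.76). In the YAP-target-low neighbour Atf3 was at 117 CPM and Il6 at 36.3 CPM, near their 114 and 33.5 CPM in the chosen cells. The ratio to that neighbour was 0.98 (0.87 to 1.10) for Atf3 and 0.92 (0.74 to 1.14) for Il6, and 8 of 12 other settings kept the direction of Atf3 and 7 of 12 that of Il6. Of the 10 genes, Ccl2 (1.41, 1.28 to 1.56) and Ier3 (1.11, 1.03 to 1.19) had intervals above 1 against the YAP-target-low neighbour.

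The 10 genes lowest relative to the immediate-early-low neighbour were of low level. Fam162b was at 3.91 CPM against 21.7 (ratio 0.18, 0.10 to 0.30), Mmp10, a stromelysin gene, at 8.80 against 40.2 (0.22, 0.15 to 0.31), and Sertm1 at 11.7 against 42.3 CPM (0.28, 0.20 to 0.38). Mmp10 and Sertm1 are on the list of vFB3 markers taken from the study. Of the 8 measured genes of that list 3, Mmp10, Sertm1 and Cxcl14, were at 0.5 or less here, beside 0.607% of all genes. With cells that held any vFB3 gate gene left out, an alternative added after seeing the data, 332 chosen and 464 neighbouring cells remained. Mmp10 was then at a ratio of 0.14 and Sertm1 at 0.31. On all cells the ratio of Mmp10 was 0.06 in Xist-positive and 0.49 in Xist-negative cells. The others were Myh14 (0.29), Cpne8 (0.31), Agt, the angiotensinogen gene (0.31), Snhg20 (0.32), Wnt4, a Wnt ligand gene (0.35), Fabp5, a fatty acid binding protein gene (0.36), and Wisp1, a CCN family gene (0.37).

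The same step can be taken in cells of low YAP-target sum. There the YAP-target-low, immediate-early-high cells were compared with the cells low in both, and no cell entered both comparisons, although all came from 1 library. Over the 10019 genes measured in both, 233 were 2-fold or more higher in the chosen cells and 227 in the YAP-target-low ones. The 173 shared genes were 74.2% of the first list and 76.2% of the second. Of the 233 genes, 230 were above 1 in the YAP-target-low cells. Of genes at 0.5 or less, 57 and 69, fewer were shared, the 21 in both lists being 36.8% and 30.4% of them. Both lists were made by the same Fos, Fosb and Egr1 division, so their overlap is a description.

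The YAP-target-low neighbour passes the same immediate early threshold, with a median sum of 48.7 UMIs per 10000 against 40.9 in the chosen cells. Against it 174 of 10282 genes (1.69%) were at a ratio of 2 or more and 144 (1.4%) at 0.5 or less. Bdnf, a neurotrophin gene, led with 37.7 CPM (31.9 to 44.1) against 4.08 CPM, a ratio of 9.22 (6.17 to 14.2). Fbn2, a fibrillin gene of elastic fibres, followed with 24.9 against 2.96 CPM (8.43, 5.23 to 14.2). Next were Tex14 (6.50), Plscr2 (6.08) and Ecscr (5.94). Dpp4, which encodes a cell surface peptidase that cleaves incretins and chemokines, was at 34.2 CPM against 6.62 (5.17, 3.69 to 7.36). Ajuba, a LIM protein gene of the Hippo pathway, was at 19.1 against 3.94 CPM (4.84, 3.10 to 7.74). The proteoglycan gene Ogn was at 969 against 209 CPM (4.65, 4.38 to 4.93). Fmod and Pxdc1 (4.20, 2.73 to 6.60) complete the 10. Bdnf, Fbn2, Ogn and Plscr2 were at 44.6, 28.6, 1072 and 31.9 CPM in the immediate-early-low neighbour, so the immediate early sum set them little apart. Tex14 (0.66, 0.57 to 0.77) and Ecscr (0.63, 0.53 to 0.74) were lower in the chosen cells than in that neighbour. In cells that failed the vFB3 gate Fbn2, Tex14, Ecscr and Ajuba were at 62.2, 166, 64.8 and 27.6 CPM, above the chosen cells. The other genes of the 10 were lower there.

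Other genes were lower than in the YAP-target-low neighbour. Has1, a hyaluronan synthase gene, was at 4.89 CPM against 34.4 (ratio 0.14, 0.09 to 0.22), and at 1.08 and 5.45 CPM in the 2 immediate-early-low populations. Ramp1, a subunit gene of the CGRP receptor, was at 7.09 against 43.5 CPM (0.16, 0.11 to 0.24). Mmp3, a stromelysin gene, was at 16.4 against 64.7 CPM (0.25, 0.19 to 0.33). Pgf, the placental growth factor gene of the VEGF family, was at 15.7 against 52.7 CPM (0.30, 0.22 to 0.39). Wnt4 was at 9.78 against 32.4 CPM (0.30, 0.21 to 0.42), and was thus lower than in both neighbours and lowest of the 4 populations. Adh1, an alcohol and retinol dehydrogenase gene, was at 30.1 against 99.0 CPM (0.30, 0.25 to 0.37). Gm10734, Epha5, Adamts15 and Sned1 lay between 0.19 and 0.27, on 10 to 19 UMIs in the chosen cells.

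**Figure D3:**
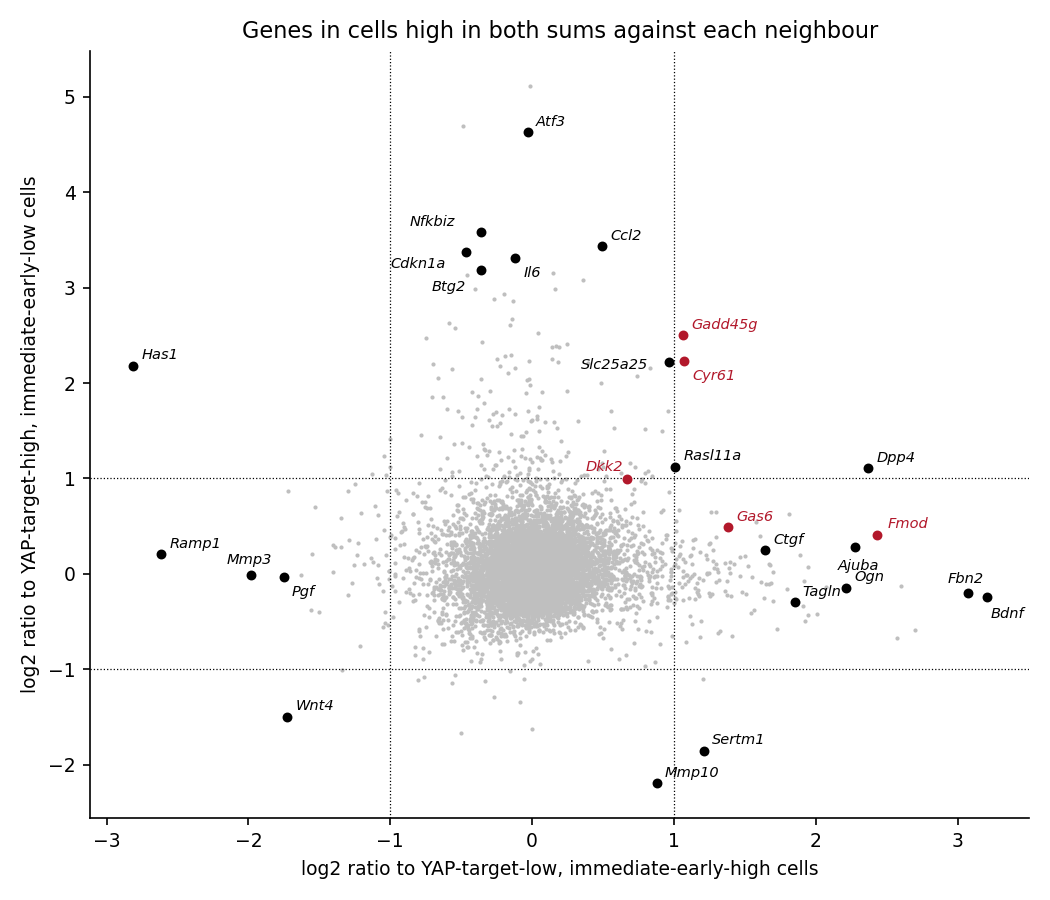
Each grey point is a gene with at least 100 UMIs in both pairs, placed by its log2 ratio in the chosen cells to the YAP-target-low neighbour (x axis) and to the immediate-early-low neighbour (y axis). Dotted lines mark 2-fold, the 5 markers are red, and Vegfc, Amotl2, Fos, Fosb, Egr1 and mitochondrial genes are left out. Most genes lie near 0 or along 1 axis, and Gadd45g, Cyr61, Rasl11a and Dpp4 are past 2-fold on both.

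Across cells of low immediate early sum the YAP-target step shared most of its higher genes. Of 10180 genes measured in both, 172 were 2-fold or more higher in the chosen cells and 136 in the immediate-early-low neighbour against the cells low in both. The 109 shared genes were 63.4% of the first list and 80.1% of the second. For genes at 0.5 or less the shared 70 were 52.6% and 47.3%. Again the same sum made both divisions.

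Few genes stood far above all 3 other gated populations. Of 10582 genes with at least 100 UMIs over the 4 populations, 2716 were highest in the chosen cells, but 59 by 1.5-fold or more over the next population and 4 by 2-fold or more. Dpp4 led with 2.16 times the level of the immediate-early-low neighbour (15.9 CPM), then came Cyr61 and Gadd45g. Outside the gates Dpp4 was as high in other stromal cells, at 31.2 CPM in cells that failed the FB4 gate and 36.7 CPM in cells with no Adamdec1 UMI. Rasl11a, a gene of a small GTPase of the Ras family, was at 149 CPM against 68.2 and 74.0 CPM in the neighbours, ratios of 2.18 (1.93 to 2.47) and 2.01 (1.79 to 2.26). In cells that failed the vFB3 gate it was at 185 CPM and in those that failed the mural and muscle gate at 199 CPM, above the chosen cells. The next were Rgcc, a cell cycle regulator gene (7.33 CPM, on 30 UMIs, against 12.1 CPM in cells that failed the vFB3 gate), Slc25a25, a mitochondrial carrier gene (37.9 CPM), and Slc5a3, a myo-inositol transporter gene (24.7 CPM). The antisense gene Atcayos (11.5 CPM), the protocadherin gene Pcdhga5 (7.33 CPM) and Masp1, a gene of the lectin complement pathway (38.6 CPM against 13.7 and 20.4), end the list. Pcdhga5 shares its 3′ exons with the other gamma protocadherins, so its counts are uncertain.

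The level in the chosen cells was set against the product of the 2 steps by the ratio of ratios, the immediate early ratio within YAP-target-high cells divided by that within YAP-target-low cells, with an interval from the Poisson variance of log counts. It was at 2 or more in 57 of 10509 genes (0.542%) and at 0.5 or less in 63 (0.599%). Its interval lay above 1 for 544 genes and below 1 for 351. Most genes moved little on either step, so a value near 1 says little of them. Its log2 had a median of 0.01, and 90% of the genes lay between −0.49 and 0.52. Among the 3908 genes with at least 1000 UMIs the bounds were −0.23 and 0.29, and 1 gene was past 2-fold in each direction. These 2 genes were named after their values were seen. Ctgf, a CCN gene and YAP target, was at 2.07 (1.71 to 2.52), since its immediate early ratio was 1.19 in YAP-target-high cells while it was at 33.8 against 59.0 CPM in YAP-target-low cells. The chemokine gene Cxcl1 was at 0.42 (0.30 to 0.58). The actin genes Acta2 and Tagln were at 1.94 (1.76 to 2.13) and 1.80 (1.60 to 2.02). For Cyr61 it was 1.40 (1.29 to 1.53), with 1.20 in Xist-positive and 1.65 in Xist-negative cells. For Gadd45g it was 0.93 (0.85 to 1.02), for Dkk2 1.07 (0.99 to 1.16), for Gas6 1.06 (0.96 to 1.17) and for Fmod 0.99 (0.72 to 1.36). The values furthest from 1 belonged to genes of low counts. Btbd11 was at 3.01 (1.47 to 6.17) on 31 UMIs, followed by Gm34006, Bco1, Gimap9, P3h2 and Zfp869 at 2.96 to 2.58. Twist1, a transcription factor gene, was at 0.24 (0.10 to 0.57) on 19 UMIs, followed by Rbm4, Hk2, Fam181b, Tmem200a and Rab42 at 0.31 to 0.34. The level of Twist1 itself was near that of both neighbours, at 0.94 of the immediate-early-low and 0.89 of the YAP-target-low one.

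Finer bins of the immediate early sum show graded levels on both sides of the YAP-target threshold. In YAP-target-high cells Cyr61 was at 158 CPM in the bin under 5 per 10000 (432 cells), then at 487, 721 and 1079 CPM, and at 1374 CPM in the bin of 60 or more (98 cells). In YAP-target-low cells the same bins gave 94.4, 328, 396, 507 and 551 CPM. Gadd45g went from 143 to 1626 CPM in YAP-target-high and from 64.5 to 667 CPM in YAP-target-low cells. Cdkn1a went from 4.20 to 90.2 CPM and from 10.2 to 110 CPM. Ctgf differed in course. It was at 86.4 to 129 CPM along the bins of YAP-target-high cells, with intervals of the first and last that do not overlap, whereas in YAP-target-low cells it went from 61.4 CPM under 5 per 10000 to 33.6 CPM at 60 or more.

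**Figure D4:**
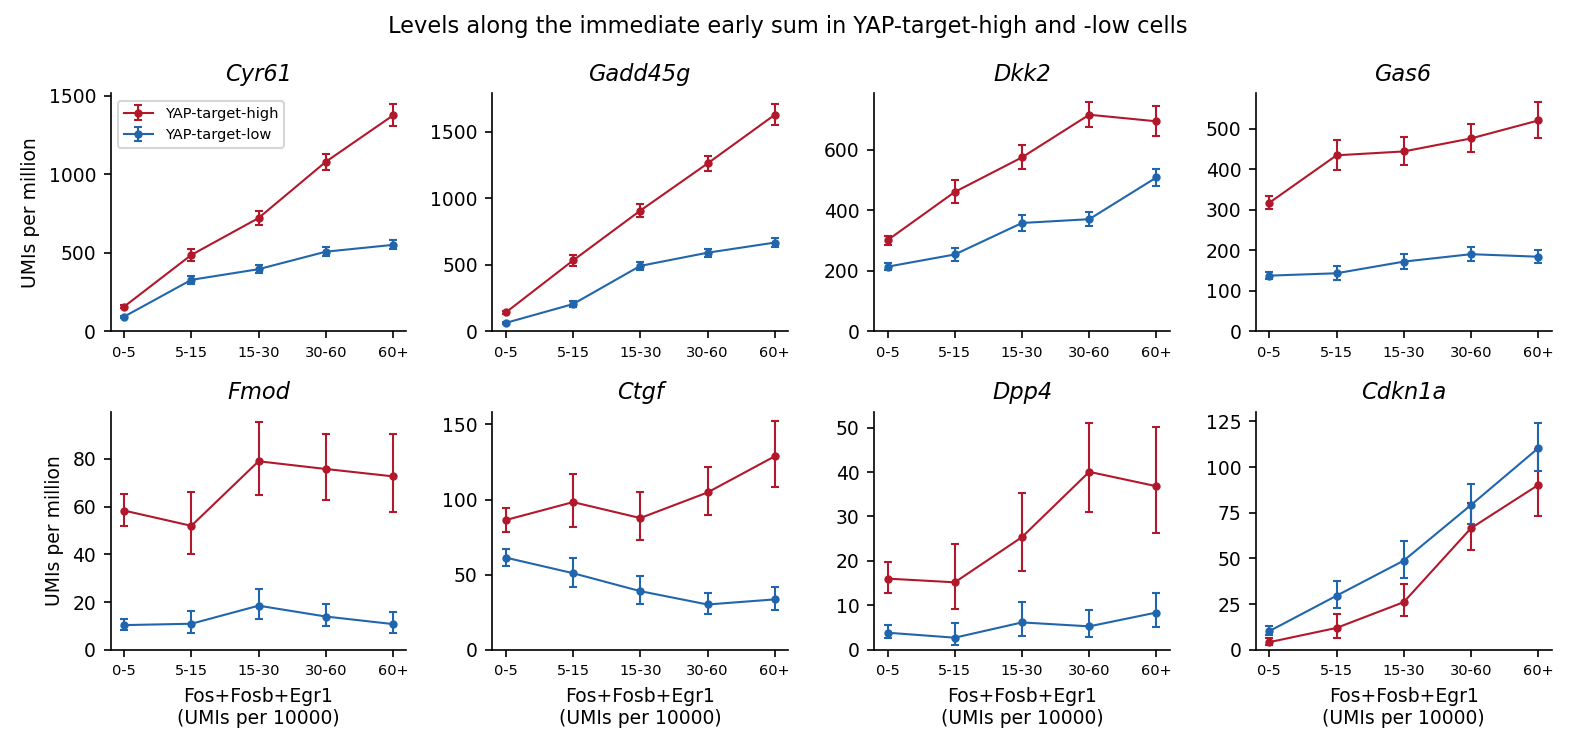
Pooled level (y axis, CPM, from 0, a separate scale for each gene) of 8 genes in 5 bins of the Fos + Fosb + Egr1 sum (x axis, UMIs per 10000), in YAP-target-high (red) and YAP-target-low (blue) gated cells, with 95% counting intervals. The 3 right-hand bins of the red line are the 350 chosen cells. Cyr61 reaches 1374 CPM on the red line and 551 CPM on the blue, whereas Cdkn1a reaches 90.2 and 110 CPM.

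Along the YAP-target sum, within immediate-early-high cells, Gas6 was at 139 CPM in cells under 1.5 per 10000 (508 cells), then at 289, 402 and 504 CPM, and at 608 CPM in cells of 8 or more (54 cells). Bdnf went from 1.60 to 57.3 CPM and Ctgf from 19.2 to 160 CPM over the same bins. Il6 had no such course, with 35.0, 39.5, 22.2, 42.2 and 42.6 CPM. Cdkn1a was at 89.1 CPM in the first bin and at 56.5 to 64.6 CPM in the others. The bins were cut from sums over the same cells, so these courses describe the cells along them.

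Of the immediate early transcription factor genes outside the rule, 20 of 21 were measured and 14 were at 2-fold or more over the immediate-early-low neighbour, none at 0.5 or less, with a median log2 ratio of 1.87. Over all genes 2.34% were at 2-fold or more and the median was 0.03. Jun was at 863 against 109 CPM (7.92, 7.30 to 8.60), Egr3 at a ratio of 14.3 and Egr2 at 12.3. Junb was at 1295 against 240 CPM. Klf2 was an exception, with 268 against 300 CPM (0.89, 0.83 to 0.96). Against the YAP-target-low neighbour none of the 20 was past 2-fold and the median was −0.11, all genes together having a median near 0. Egr2 was the lowest, at 15.2 against 29.2 CPM (0.52, 0.38 to 0.69). Of the other immediate early genes 16 of 19 were past 2-fold against the first neighbour (median 1.85). Examples are Ier2 (5.98), Plk3 (6.92) and Zfp36, whose product destabilizes cytokine mRNAs (4.75).

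Of 14 heat shock genes 4 were at 2-fold or more over the immediate-early-low neighbour, beside 2.34% of all genes. Hspa1a was at 311 against 48.8 CPM (6.36, 5.62 to 7.22), Hspa1b at a ratio of 6.10 and Dnajb1 at 3.71, while the median log2 of the list was 0.61. The cells had been dissociated enzymatically before capture. The part of handling in the immediate early and heat shock levels was not tested. Against the YAP-target-low neighbour the heat shock list had a median of −0.04 with none past 2-fold, and 9 of 13 other settings kept that sign.

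Genes of NF-κB and cytokines gave 9 of 13 at 2-fold or more over the immediate-early-low neighbour, beside 2.34% of all genes. Icam1, an adhesion receptor gene, was at 671 against 138 CPM (4.87, 4.51 to 5.25), and Ptgs2, the gene of the inducible cyclooxygenase, at 64.5 against 15.7 CPM (4.11, 3.26 to 5.22). Against the YAP-target-low neighbour none was past 2-fold upward and 2 were at 0.5 or less, Il33 (0.32) and Il1b (0.34), beside 1.4% of all genes. Of 11 stromal chemokine genes 4 were past 2-fold over the first neighbour: Ccl2, Cxcl1 (135 against 17.1 CPM), Cxcl10 (87.0 against 15.7 CPM) and Cxcl2 (11.2 against 3.85 CPM). Cxcl14, also a vFB3 marker, was lower, at 95.1 against 204 CPM (0.47, 0.42 to 0.52), and at 2.30 times the level of the YAP-target-low neighbour. Cxcl13, a B cell chemokine gene, was at 43.3 against 100 CPM in that neighbour (0.43, 0.36 to 0.51). Cxcl10 was lower than in the YAP-target-low neighbour, at a ratio of 0.59 (0.53 to 0.67).

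Beside 2.34% of all genes, 4 of 11 arrest and apoptosis genes were past 2-fold over the immediate-early-low neighbour. They were Cdkn1a, Gadd45g, Gadd45b (1429 against 275 CPM, 5.19) and Gadd45a (2.72, 2.07 to 3.59). Gadd45b was at 1294 CPM in the YAP-target-low neighbour (ratio 1.10, 1.07 to 1.14), unlike Gadd45g. Proliferation genes were at low levels. Mki67 and Ccnb1 had no UMI in the chosen cells, and the 9 genes summed to 63.6 CPM, against 54.2 CPM in the immediate-early-low neighbour, 62.3 CPM in the YAP-target-low one and 52.3 CPM in the cells low in both. Of the 3 with enough UMIs none was past 2-fold, with a median log2 of 0.38 against the first neighbour.

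Of the YAP/TAZ target genes outside the rule, 14 of 17 were above 1 against the YAP-target-low and 16 of 17 against the immediate-early-low neighbour. Over all genes measured, 5070 of 10282 and 5413 of 10054 were above 1 in these comparisons. In the first comparison 5 of 17 were at 2-fold or more, beside 1.69% of all genes, with a median log2 of 0.48. These 5 were Ajuba, Ctgf (105 against 33.8 CPM, 3.12, 2.66 to 3.67), Crim1 (145 against 52.5 CPM, 2.77), Myof (2.17) and Cyr61. Axl went the other way, at 186 against 227 CPM (0.82, 0.75 to 0.90). Against the immediate-early-low neighbour 2 of 17, Cyr61 and Gadd45a, were past 2-fold, beside 2.34% of all genes, with a median of 0.25. The 22 genes listed, Cyr61 among them, summed to 3076 CPM in the chosen cells and 1759 CPM in the cells low in both. They summed to 1937 CPM in the immediate-early-low and 2067 CPM in the YAP-target-low neighbour. This sum thus does not order the 2 neighbours as their Vegfc and Amotl2 sums do. Of the Hippo pathway and TEAD genes, the cofactor gene Vgll3 was the 1 of 17 past 2-fold against the YAP-target-low neighbour, at 101 against 32.3 CPM (3.13, 2.66 to 3.70). Tead1 was at 144 against 73.1 CPM (1.97, 1.75 to 2.22) and Lats2 at a ratio of 1.65. The coactivator genes Yap1 and Wwtr1 were at ratios of 1.16 (0.97 to 1.39) and 0.74 (0.66 to 0.83).

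**Figure D5:**
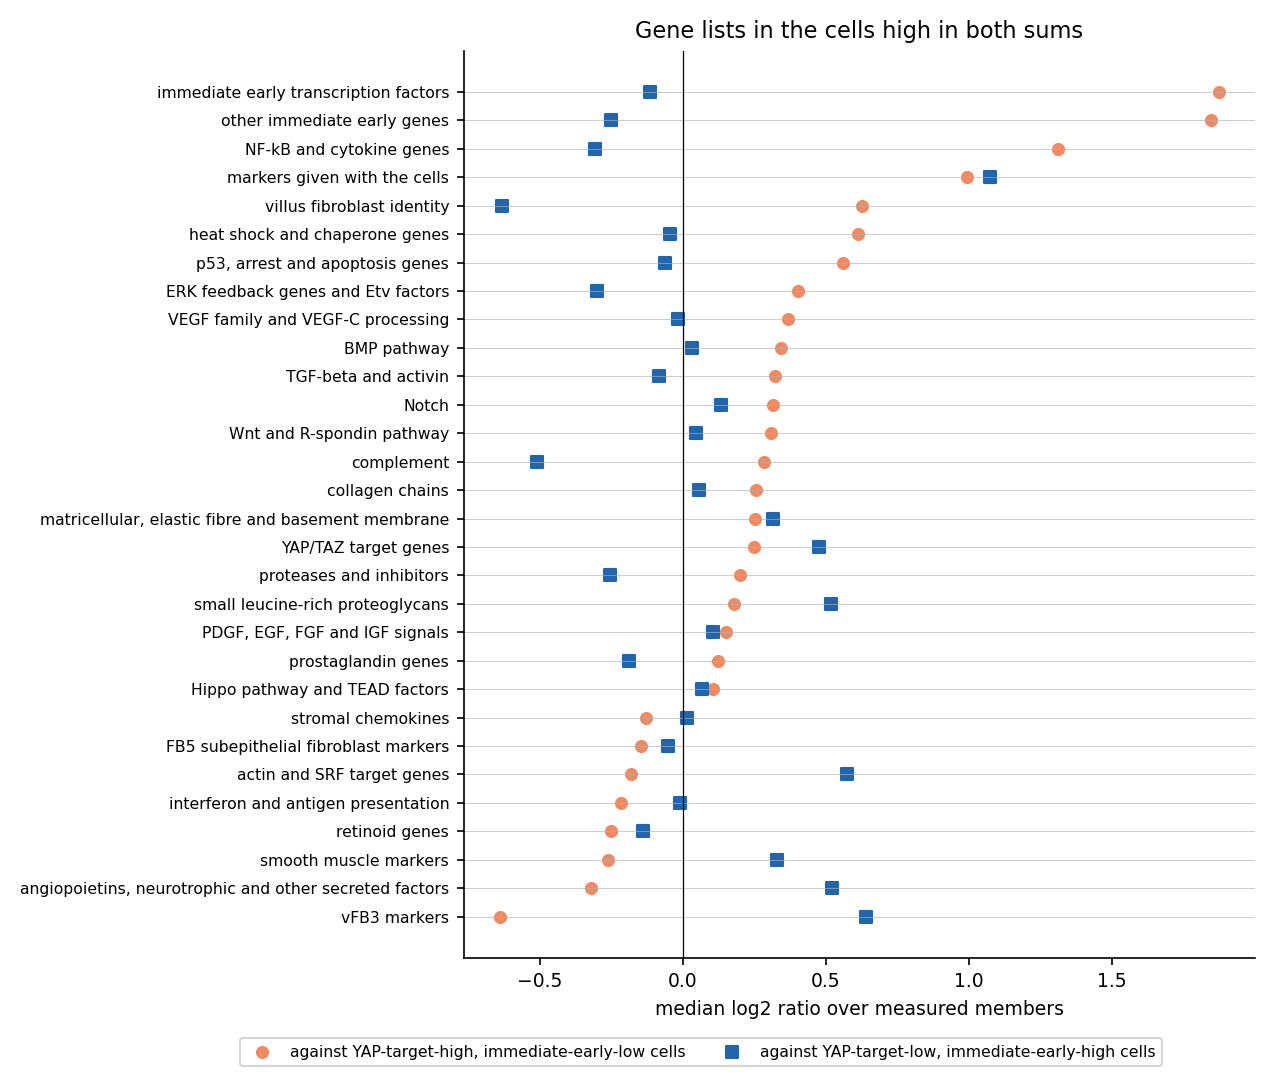
Median log2 ratio (x axis) of the measured members of each gene list (y axis, lists with at least 5 measured members in both comparisons) in the chosen cells to the immediate-early-low neighbour (orange circles) and the YAP-target-low neighbour (blue squares). Immediate early lists are at 1.87 and 1.85 in the first and at −0.11 and −0.25 in the second, while actin and SRF targets are at −0.18 and 0.57.

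Of 18 genes of the actin cytoskeleton and SRF targets 5 were at 2-fold or more over the YAP-target-low neighbour (median log2 0.57), beside 1.69% of all genes. Tagln was at 301 against 83.4 CPM (3.61, 3.27 to 3.98), Acta2, the smooth muscle actin gene, at 347 against 130 (2.66, 2.45 to 2.89), Myl9 at 2.27, Cnn2 at 2.18 and Tpm1 at 2.12. Against the immediate-early-low neighbour none was past 2-fold and the median was −0.18, with Acta2 at 0.64 (0.60 to 0.68) and Myl9 at 0.63. Smooth muscle markers summed to 1301 CPM in the chosen cells, 1764, 670 and 1286 CPM in the others, and share Tagln, Acta2 and Myl9 with this list. Against the YAP-target-low neighbour 7 of the 8 smooth muscle markers were above 1 and 3 past 2-fold, with a median log2 of 0.33, beside 5070 of 10282 genes above 1 over all measured. The part of muscle cell RNA in these values was not tested.

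In the CCN family Cyr61, Ctgf and Wisp2 were the 3 of 5 with enough UMIs against the YAP-target-low neighbour. All were past 2-fold, beside 1.69% of all genes. Wisp2 was at 11.5 against 2.11 CPM (5.44, 2.99 to 10.47). The small leucine-rich proteoglycan genes gave 4 of 10 past 2-fold against the same neighbour, Fmod, Ogn, Omd (3.33) and Prelp (652 against 317 CPM, 2.06). None was past 2-fold against the immediate-early-low neighbour, beside 2.34% of all genes. Dcn itself was lower than in the YAP-target-low neighbour, at a ratio of 0.76 (0.75 to 0.77). Of the elastic fibre and basement membrane genes Fbln5 was at 1561 against 473 CPM (3.30, 3.17 to 3.44) and Nid2 at 81.7 against 25.6 (3.19), while Fbln1 was at 864 against 1858 CPM (0.47, 0.45 to 0.48) and Spon2 at 0.34. Among 18 collagen chain genes Col12a1 was past 2-fold against that neighbour (2.05, 1.82 to 2.30) and Col5a3 against the other (2.14, 1.75 to 2.62).

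Of 10 measured genes of the VEGF family and VEGF-C processing, Ccbe1 was at 2-fold or more against the YAP-target-low neighbour, beside 1.69% of all genes. Pgf was at 0.5 or less, beside 1.4% of all genes. The median log2 of that list was −0.02, a sign kept in 7 of 12 other settings. Angpt2, an antagonist of the vascular receptor TIE2, was at 14.7 against 2.82 CPM in the YAP-target-low neighbour (5.21, 3.09 to 9.12), next to Bdnf, and the 2 were the ones past 2-fold of 7 measured secreted factors. Ccbe1, needed for activation of VEGF-C, was at 25.9 against 12.8 CPM (2.02, 1.51 to 2.71), and Pgf was lower. Vegfa was at 12.5 CPM, against 5.54 CPM in the immediate-early-low neighbour (2.25, 1.44 to 3.55) and 14.8 CPM in the YAP-target-low one. Vegfd was at 36.2 CPM and near the level of both neighbours, with ratios of 1.01 (0.82 to 1.24) and 0.97 (0.79 to 1.19).

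Of 13 measured Wnt genes 1 was past 2-fold against the YAP-target-low neighbour, Nkd1, a feedback inhibitor (68.0 against 30.7 CPM, 2.21). At 0.5 or less were 3, Wnt4, the R-spondin gene Rspo1 (0.47, 0.31 to 0.71) and the antagonist gene Sfrp1 (1008 against 2465 CPM, 0.41, 0.40 to 0.42). Over all genes the shares against this neighbour were 1.69% at 2-fold or more and 1.4% at 0.5 or less. Axin2, a target gene of Wnt signalling, was at 31.1 CPM, against 14.3 CPM in the immediate-early-low neighbour (2.17, 1.65 to 2.87) and 22.0 CPM in the YAP-target-low one (1.41, 1.11 to 1.80). In the BMP list Bmp3 was past 2-fold (18.1 against 2.82 CPM, 6.42, 3.88 to 11.1) against the YAP-target-low neighbour and at 0.48 (0.37 to 0.63) against the other. For TGF-β and activin genes Ltbp2 (12.96 against 1.69 CPM, 7.67) was the 1 of 12 past 2-fold on the YAP-target side. Notch gave Hes1 on the first (626 against 199 CPM, 3.15, 2.95 to 3.37) and Notch3 on the second (14.2 against 4.08 CPM, 3.47). The TAM receptor gene Mertk was at 46.0 CPM, against 23.1 in the immediate-early-low neighbour (1.99, 1.60 to 2.48) and 42.7 CPM in the other.

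Of the 11 villus identity genes 1 was at 0.5 or less against the YAP-target-low neighbour, beside 1.4% of all genes, and 1, Dkk2, was above 1 (1.59). The median log2 was −0.63, with Ces1d at 271 against 644 CPM (0.42, 0.39 to 0.45) and Cd34 at 281 against 545 CPM (0.52, 0.48 to 0.55). Against the immediate-early-low neighbour the same list had a median of 0.63, with Ces1d at 1.92 (1.76 to 2.10) and Cd34 at 1.52. Of the 11 genes 1 was at 2-fold or more there, beside 2.34% of all genes. Of 8 measured complement genes 2 were at 0.5 or less against the YAP-target-low neighbour, beside 1.4% of all genes. The 2 were C3 (160 against 408 CPM, 0.39, 0.36 to 0.43) and C7 (0.36), and the median of the list was −0.51. Of the proteases, Adamts4 went with the immediate early sum (151 against 34.2 CPM, 4.42, 3.79 to 5.18) and Adamts5 with the YAP-target sum (330 against 102 CPM, 3.24, 2.96 to 3.55).

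The remaining lists had few genes past 2-fold. Over all genes 2.34% were at 2-fold or more over the immediate-early-low and 1.69% over the YAP-target-low neighbour. Ptgfr, a prostaglandin receptor gene, was at a ratio of 3.10 to the immediate-early-low and 0.48 to the YAP-target-low neighbour. Of the 15 interferon and antigen presentation genes Irf1 was past 2-fold on the immediate early side (200 against 65.7 CPM, 3.05), and none was on the other. Retinoid genes had none past 2-fold, with Lrat, the retinyl ester synthase gene, at 184 against 350 CPM (0.53, 0.48 to 0.57). Growth factor and receptor genes gave Pdgfa (49.1 against 20.4 CPM, 2.41) and Igfbp2 (2.93) over the YAP-target-low neighbour. The ERK feedback genes gave none by that count, with Errfi1 at 2.00 (1.77 to 2.25) and Spry1 at 0.91 against the first neighbour.

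The cells were also chosen on a random part of each cell's UMIs and measured on the rest, so that no UMI served both uses. Of 352 cells so chosen, 279 (79.3%) were also members on all UMIs. In the measured part Vegfc was at 210 CPM, against 244 CPM in the immediate-early-low and 57.1 CPM in the YAP-target-low neighbour, and Fos was at 2373, 145 and 2681 CPM. On all UMIs Vegfc had been at 260, 293 and 38.0 CPM. Cyr61 was at 1010 CPM, against 218 and 519 CPM, and Gadd45g at 1203, against 218 and 602 CPM. Genes higher than in the YAP-target-low neighbour were 114 in place of 174, whereas those over the immediate-early-low neighbour were 200 in place of 235. Fewer UMIs were measured, so these counts are over fewer genes with at least 50 UMIs in the pair.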

How the data were processed

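Villus fibroblasts were taken from 1 droplet library of tdTomato+ IntSCs, LATS1/2 KO, 1 week after tamoxifen. Per the submitters' processing notes, reads were aligned to mm10 with Cell Ranger 3.0.2 and Seurat 3.0.1 was used (the paper's methods give another Seurat version). Per those methods, cells were filtered (1000 to 6000 genes, at most 7% mitochondrial UMIs, genes in at least 3 cells), and immune and endothelial cells were removed. The deposited values are on a natural log scale, the natural log of 1 plus UMIs per 10000, made by the authors for 18619 genes in 4108 cells. UMI counts were recovered from the steps of each cell, and 100% of 13789523 values above 0 were whole multiples within 0.001, for 46054627 UMIs in all. The column marks M and F followed Xist. The paper speaks of 2 mice per group and of cells divided by Xist before integration. Which mouse or capture a mark stands for is not given in the sources used here, and the columns were treated as 1 library.

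The rule, the gene lists and the comparisons were chosen with earlier results of these data known. UMIs of a population were summed, divided by its total and given per 1000000. Ratios were called at 2 or more or 0.5 or less with at least 50 UMIs in the pair, and the ratio of ratios with at least 100 UMIs over the 4 populations and 10 in each. Named genes were the 5 markers, the 10 largest ratios in each direction with at least 100 UMIs (6 for the ratio of ratios) and the 4 of each of 40 lists furthest from 1. Others were named after their values were seen. The values of 1 gene of these rankings are not reported here. The 22 genes of the rule were left out of counts. Doublets were treated by an alternative that leaves out the 4% of cells with the highest scores (scanpy 1.11.5), which keeps 340 of the 350. Scripts used Python 3.11.15, numpy 2.4.6, pandas 2.3.3 and scipy 1.17.1. Gene positions came from GENCODE M21 and promoter windows from RefSeq. Depth sets the precision: at 4090080 UMIs in the chosen cells a gene of 10 UMIs has a wide counting interval, and PCR copies are removed by UMIs.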

Additional observations from a re-analysis of the deposited data

How the results depend on the processing

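The counts of genes past 2-fold were recomputed under 13 other settings, 1 of them, which leaves out cells with any vFB3 gate gene, chosen after seeing the data. Ratios with fewer UMIs than the minimum under a setting were not computed. The counts stayed within 1.5 times except as follows, and the cause was not tested. These settings have fewer cells, fewer UMIs measured or a lower minimum, so their counts are over different numbers of genes. With thresholds of 5 and 25 per 10000 (149 chosen cells), ratio of ratios of 2 or more were 121 in place of 57. With gates that let no gene of another type through, 11 chosen cells were left. Genes higher and lower than in the immediate-early-low neighbour were then 62 and 104, those against the YAP-target-low neighbour 22 and 25, and ratio of ratios of 0.5 or less 28. In that setting Gadd45g reversed against the YAP-target-low neighbour, at 0.887 in place of 2.10. With cells chosen on a random part of their UMIs, genes against the YAP-target-low neighbour were 114 higher and 82 lower, and ratio of ratios of 2 or more were 92. In Xist-positive cells genes lower than in the YAP-target-low neighbour were 93 and ratio of ratios of 2 or more 87, and in Xist-negative cells the latter were 94. In cells of 8000 to 14000 UMIs, genes lower than in the immediate-early-low neighbour were 24. With a minimum of 20 UMIs in the pair (50 for the ratio of ratios), genes against the immediate-early-low neighbour were 372 higher and 160 lower, those lower than in the YAP-target-low neighbour 301, and ratio of ratios of 2 or more 97. Of the ratios of named genes, 1028 moved little and 141 moved, and 1 that was past 2-fold turned its direction, and of the list medians 806 moved little and 54 moved by more than 0.25 on the log2 scale. Ratios under 2-fold that crossed 1 are not in the last count, for example those to the immediate-early-low neighbour of Fbn2 and Ajuba, which kept their direction in 9 and 11 of 12 settings, and that of Gm26802 to the YAP-target-low one (7 of 12). Scaling by the median of ratios shifted log2 ratios by 0.04 and 0.03.

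No paired test was made, since 1 library was analysed and the number of animals in each Xist subset is not given. Ratios within each Xist subset come nearest to a comparison within animals. Genes at the edges of the ratio of ratios rest on 10 to 31 UMIs in the chosen cells. Xist-positive and Xist-negative cells are mostly of different sexes and so of different animals, and they are no replicates of a group. Differences between deleted and undeleted mice cannot be read from these values.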
